A study of Mus musculus with 3 samples.

Results

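Isg15 conjugation and deconjugation genes were followed on microarrays of mouse tail-tip fibroblasts (TTFs) on day 8 of reprogramming. The 6 genes, Isg15, Usp18, Herc6, Ube2l6, Uba7 and Trim25, are a named set. They were found on the array by the RefSeq accession of each probe, which gave 8 probes for the 6 genes out of 20825 genes named on the array. Isg15 and Herc6 had 2 probes each, and every one of the 8 probes was spotted once.

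The samples were 3, with 1 array per group. Young WT cells came from wild-type mice aged 2 months, old WT cells from wild-type mice aged 22 months, and old p16-/- cells from mice aged 22 months that lack p16, the product of Cdkn2a that inhibits cyclin-dependent kinases. All 3 cell populations had received Oct4, Sox2, Klf4 and c-Myc, so there is no array of cells without the factors. The design text speaks of 2 experiments on separate donors, and which of them an array belongs to, or whether it pools both, is not given. Strain, donor sex and the number of mice behind an array are not given in the sources used here. Since no group has a second array, replicate spread is unknown, no test was run, and no difference has a replicate check. Ratios below are named by the arrays compared: "old against young WT" is old WT divided by young WT, and "p16-/- against old WT" and "p16-/- against young WT" have old p16-/- on top.

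Isg15 is a ubiquitin-like protein that interferon induces in most cell types. It is joined to lysines of target proteins by a chain of enzymes that parallels ubiquitination: Uba7 activates it (E1), Ube2l6 carries it (E2), and an E3 ligase, in mice chiefly Herc6, transfers it. Usp18 removes it from targets and separately blocks signalling at the type I interferon receptor. Trim25, an E3 ligase for ubiquitin that also activates the RNA sensor RIG-I, has been described as a further E3 for Isg15.

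The stretches of 150 bases before the gene start are shown for the 3 genes whose promoter windows held a match to the interferon-stimulated response element, the site through which interferon-activated Stat and Irf factors act. Sequences are RefSeq's, build GRCm38.p6, written 5′ to 3′ on the strand of the gene, with matched bases in capitals: the exact cores in Isg15, and the longer form with 1 mismatch in Uba7 and Trim25, both described after the sequences.
Isg15 (chr4:156200819-156200968, minus strand): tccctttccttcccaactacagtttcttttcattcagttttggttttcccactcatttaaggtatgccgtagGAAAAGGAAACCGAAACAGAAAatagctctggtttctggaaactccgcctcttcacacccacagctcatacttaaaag
Uba7 (chr9:107975417-107975566, plus strand): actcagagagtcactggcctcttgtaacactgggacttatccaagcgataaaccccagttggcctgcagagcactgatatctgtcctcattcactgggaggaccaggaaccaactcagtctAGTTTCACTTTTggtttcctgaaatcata
Trim25 (chr11:88999253-88999402, plus strand): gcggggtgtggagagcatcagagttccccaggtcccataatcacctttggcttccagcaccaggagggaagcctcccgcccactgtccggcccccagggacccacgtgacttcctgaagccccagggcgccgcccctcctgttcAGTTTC

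RefSeq windows of 250 bases before to 50 bases after the start were held for 5 of the 6 genes, Usp18 being the exception. Both strands were searched. The Isg15 window held the core of the response element (GAAA, any 2 bases, GAAA) at 3 overlapping places, from bases -78 to -57. That core was present in 1131 of 32851 windows (3.44%), and in none of the windows of Uba7, Ube2l6, Herc6 and Trim25. The longer form (the same with CT added at its 3′ end), which contains the core, had no exact match in the 5 windows, against 0.271% of all windows. With 1 mismatch allowed, a search added after the sequences were seen, it matched in Isg15, Uba7 (bases -29 to -18) and Trim25 (bases -6 to 6, so that the capitals above show only the bases before the start), against 3.71% of all windows. The gamma-activated site TTCNNNGAA, found in 8.30% of windows, was in none of the 5. No binding was measured, and a match is only a run of letters.

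**Figure D1:**
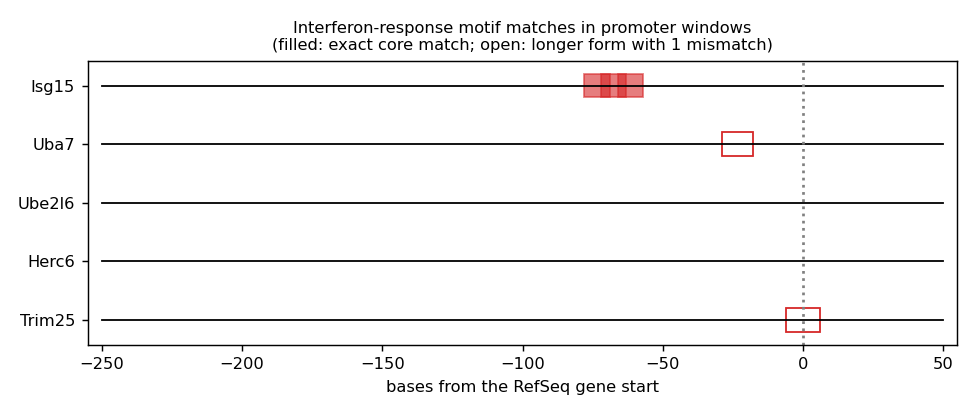
Matches to the interferon-stimulated response element in the RefSeq promoter windows of 5 genes, by distance in bases from the gene start (dotted line). Filled boxes are exact matches to the core, all 3 of them in Isg15; open boxes in Uba7 and Trim25 are the longer form with 1 mismatch, whose matches in Isg15 overlap the filled boxes and are not drawn.

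The 6 genes did not move as a block. Across the arrays, Isg15 and Usp18 had large differences, Uba7 intermediate ones, Herc6 small ones, and Ube2l6 and Trim25 were within 2-fold throughout. All 8 probes were well above background on all 3 arrays. Values are the processed signal of the spot, a linear intensity, and ratios are log2 after each array's 75th percentile of log2 signal was subtracted. Beside each ratio stands a spot error. It is the SD of log2 signal between repeat spots, taken from probes spotted 10 times in the same signal range and combined over both arrays, and it covers spotting and scanning only.

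Isg15, the modifier itself, read 12802 on young WT and 59455 on old WT by its brightest probe, and 4766 on old p16-/-. The old WT array was highest and the p16-/- array lowest. The log2 ratio was 2.28 ± 0.065 (spot error) for old against young WT, or 4.85-fold, and -3.65 ± 0.063 for p16-/- against old WT, or 12.5-fold lower. Old p16-/- was also below young WT, at -1.37 ± 0.068. The second probe had signals of 912, 4585 and 281, in the same order, and ratios of 2.39, -4.03 and -1.64 for the same comparisons. Both probes thus placed the arrays in the order old WT, young WT, old p16-/-.

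Usp18, the protease that takes Isg15 off its targets, had signals of 3064, 9643 and 440 on young WT, old WT and old p16-/-. It was at 1.72 ± 0.067 for old against young WT (3.29-fold), at -4.46 ± 0.099 for p16-/- against old WT (22.1-fold lower) and at -2.75 ± 0.10 for p16-/- against young WT (6.71-fold lower). Only 8 of 14681 genes had a lower ratio than Usp18 for p16-/- against old WT, and 33 had a lower one than Isg15. For old against young WT, 92 of 14534 genes had a higher ratio than Isg15 and 167 a higher one than Usp18.

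Uba7, the E1 enzyme that starts the chain, had signals of 591, 1107 and 215 on young WT, old WT and old p16-/-. Its ratios were 0.97 ± 0.080 for old against young WT, just inside 2-fold, -2.37 ± 0.11 for p16-/- against old WT (5.17-fold lower) and -1.40 ± 0.10 for p16-/- against young WT (2.64-fold lower). Uba7 had the same order of arrays as Isg15, with smaller differences from old WT and a like one between old p16-/- and young WT.

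Ube2l6, the E2 enzyme, had signals of 1134, 1252 and 898 on young WT, old WT and old p16-/-. Its ratios were 0.20 ± 0.080, -0.49 ± 0.080 and -0.28 ± 0.078 for old against young WT, p16-/- against old WT and p16-/- against young WT. None reached 2-fold. In the first comparison 19.1% of all genes had a higher ratio, and in the second 15.1% had a lower one.

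Herc6, the main E3 ligase for Isg15 in mice, was dim, with signals of 206, 393 and 187 on young WT, old WT and old p16-/- by its brightest probe. The ratios were 0.99 ± 0.12 for old against young WT and -1.08 ± 0.12 for p16-/- against old WT, close to 2-fold on either side of it. The second probe had signals of 156, 226 and 179 and gave 0.59 and -0.34, so that the probes differed in size but not in direction. Old p16-/- and young WT were not separated: the probes gave -0.09 ± 0.13 and 0.25 ± 0.13, in opposite directions.

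Trim25 had signals of 25971, 25158 and 24152 on young WT, old WT and old p16-/-. Its ratios of 0.02 ± 0.059, -0.07 ± 0.060 and -0.05 ± 0.058 lay at 0.27, 1.11 and 0.86 spot errors from 0. The levels of the 3 arrays could not be ordered.

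**Figure D2:**
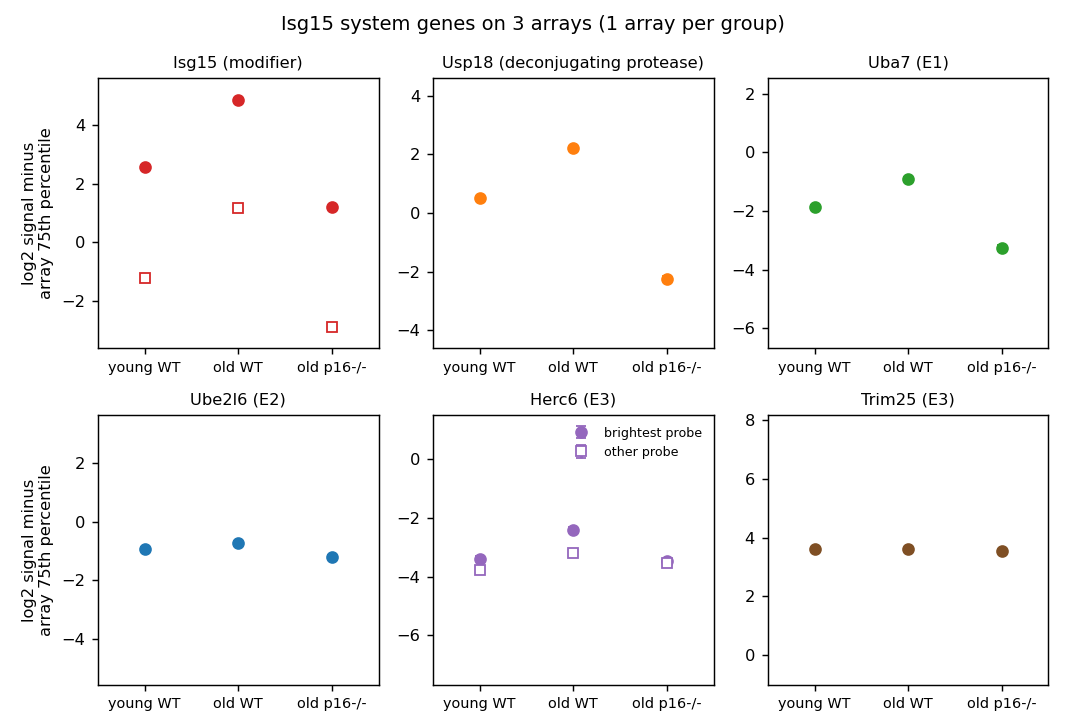
Level of each probe on the 3 arrays, as log2 signal minus the array's 75th percentile, with 1 point per array (filled, brightest probe; open squares, second probe of Isg15 or Herc6); bars are the SD between repeat spots in the same signal range and are mostly hidden by the points. Every panel spans the same number of log2 units, so that steps can be compared between panels and heights cannot; Isg15, Usp18 and Uba7 peak on old WT and are lowest on old p16-/-, and Trim25 is level.

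For old against young WT, the question of donor age, 2 of the 6 genes were at least 2-fold higher (Isg15 and Usp18) and 0 were at least 2-fold lower. Among all counted genes 2.92% passed 2-fold upwards and 3.16% downwards. A gene was counted if either array called its brightest probe well above background. All 6 ratios were above 0, as were 47.7% of all counted genes, but Trim25 at 0.02 lay within its spot error of 0. The median of the 6 was 0.98 against 0.00 over all counted genes.

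For p16-/- against old WT, the question of p16 loss in old cells, 4 of the 6 genes were at least 2-fold lower (Isg15, Usp18, Uba7 and Herc6) and 0 were higher. The background was 6.62% lower and 5.85% higher. All 6 ratios were below 0, as were 47.0% of all counted genes, but Trim25 at -0.07 lay near its spot error. The median of the 6 was -1.72 against 0.02 over all counted genes. Herc6 was no longer 2-fold lower when its 2 probes were averaged (-0.71) or with normexp background correction (-0.79), which leaves 3 of 6.

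For p16-/- against young WT, 3 of the 6 genes were at least 2-fold lower (Isg15, Usp18 and Uba7) and 0 were higher, against a background of 6.97% lower and 6.35% higher. The median was -0.83 against 0.03 over all counted genes. The 3 comparisons share arrays, so a high or low reading of 1 array enters 2 of them.

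Among genes whose brighter array read 1000 or more, which drops Herc6 from every comparison and Uba7 from the last, 2 of 5 members were at least 2-fold higher in old against young WT (background 1.18%) and 0 lower (0.562%). In p16-/- against old WT 3 of 5 were lower (4.23%) and 0 higher (2.65%). In p16-/- against young WT 2 of 4 were lower (4.2%) and 0 higher (3.42%).

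By brightest probe, all 6 genes were highest on old WT and lowest on old p16-/-, an order held by 19.5% of the 12874 genes above background on all 3 arrays. For Trim25 the steps lay near the spot error, and for Herc6 the lower step depended on the probe. At least 2-fold in both of the first 2 comparisons were 2 of the 6 genes, Isg15 and Usp18, and 0.769% of the 12874.

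**Figure D3:**
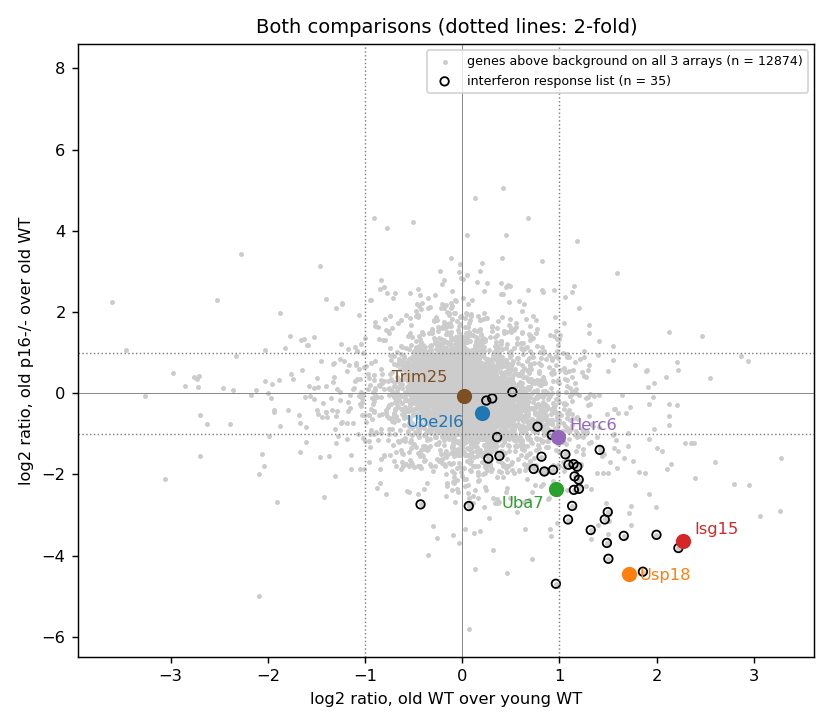
Log2 ratio of old against young WT (horizontal) against that of p16-/- against old WT (vertical) for the 12874 genes above background on all 3 arrays (grey), the 35 interferon response genes among them (open circles) and the 6 Isg15 system genes (coloured). The axes share the old WT array; Isg15 and Usp18 lie at the lower right end of the open circles, Uba7 and Herc6 in between, and Ube2l6 and Trim25 near the centre.

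Within an interferon response list of 42 genes that left out the 6, of which 40 were counted, the median was 1.08 for old against young WT and -2.09 for p16-/- against old WT. In the first comparison 21 were at least 2-fold higher, against 2.92% of all counted genes. In the second 35 were at least 2-fold lower, against 6.62%. The list was chosen with earlier results of these data known, so its counts and the places of the members within it only describe. No gene of the list had a higher ratio than Isg15 for old against young WT, and 3 of 40 had a higher one than Usp18. For p16-/- against old WT, 1 of 40 lay below Usp18, 6 below Isg15 and 18 below Uba7. At the other end, 37 of the 40 lay below Ube2l6 and 39 below Trim25. The median of the Ifit, Ifi27 and Ifi44 effectors was -3.75 over 8 genes in that comparison. The median of the oligoadenylate synthetase family was -2.58 over 6, of which 1 (Oas3) was above background on old WT alone. The difference from the 6 Isg15 system genes was not tested.

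Genes with the pattern most like each member were sought among 8907 others that were above background on all 3 arrays and read 1000 or more on the brightest, by Euclidean distance over the first 2 log2 ratios. For Isg15 the nearest were Ifi44 (2.23 and -3.81), Rtp4 (2.00 and -3.49), Irf7 (1.66 and -3.51), Krt34, Apol9b, Ifit1, Apol9a, Oasl2, Ifit3 and Tchh, at distances of 0.17 to 0.89. Krt34, a hair keratin, was at 1.74 and -3.24, and Tchh, which encodes the hair follicle protein trichohyalin, at 1.99 and -2.81; neither is on the interferon list. For Usp18 they were Oasl2 (1.86 and -4.39, at a distance of 0.16), Ifit3, Ifi27l2a, Ifit1 and Ifi44, all on that list. For Uba7 they were H2-DMb1, an antigen-loading gene (1.08 and -2.38), Cpxm2, Oas1a, Abi3bp and Lgals3bp. For Herc6 they included Dtx3l (0.92 and -1.03), Mn1, Ccbe1 and Dgke.

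Ube2l6 and Trim25 sat where genes are dense. Within 0.25 of Ube2l6 lay 591 genes and within 0.25 of Trim25 lay 4032, against 1 for Isg15, 1 for Usp18, 6 for Uba7 and 11 for Herc6. Their nearest genes, 1110046J04Rik, Cask, Mpv17, Ifit1bl2 and Lats2 for Ube2l6 and P3h4, Hsf1, Arf4, Gtf2f1 and Paip2b for Trim25, are therefore a few of many at like distances.

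Most classes of related enzymes and modifiers were level. Among 20 counted ubiquitin-like modifiers, which include ubiquitin, Sumo and Nedd8 genes, 0 were 2-fold apart in any of the 3 comparisons; for p16-/- against old WT they ran from -0.46 to 0.29 where Isg15 was at -3.65. The interferon-inducible modifier Ubd (FAT10) stayed below the background call on all 3 arrays. The 9 other E1 enzymes ran from -0.28 to 0.41 in that comparison, and 0 of them were 2-fold apart, where Uba7 was at -2.37. Uba1, the main E1 of ubiquitin, had signals of 84410, 82267 and 82855 on young WT, old WT and old p16-/-. The 31 counted Ube2 genes other than Ube2l6 ran from -0.45 to 0.77, and Ube2l6 lay just below them at -0.49. The 4 other Herc genes were at 0.07 to 0.45, with Herc3 at 0.32.

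Usp genes were taken by symbol. Among 45 counted other than Usp18, 4 were at least 2-fold higher on old p16-/- than on old WT and 0 were lower. Over all counted genes 5.85% were higher and 6.62% lower. The 4 were Usp8 (1.81), Usp13 (1.12) and, by bounds, Usp35 and Usp29; all had signals under 1000. The lowest was Usp2, at -0.94. Trim genes were the only one of these classes with genes at least 2-fold lower on old p16-/- than on old WT. They were 7 of 41, against 6.62% of all counted genes, while Trim25 was at -0.07. Trim34a was at -3.50, Trim21 at -1.89 and Trim16 at -1.49. The rest were bounds: Trim12a at -7.05, Trim30a at -3.77, Trim30d at -3.75 and Trim34b at -1.29. For old against young WT, Trim30a, Trim30d and Trim34b were at least 2-fold higher, the last by a bound, whereas Trim12a was at 0.16 and Trim16 at -0.03. A bound is used where only 1 of the arrays was above background. It sets the bright level against the probe's own level on the dim array or the lowest level called above background there, whichever is higher.

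**Figure D4:**
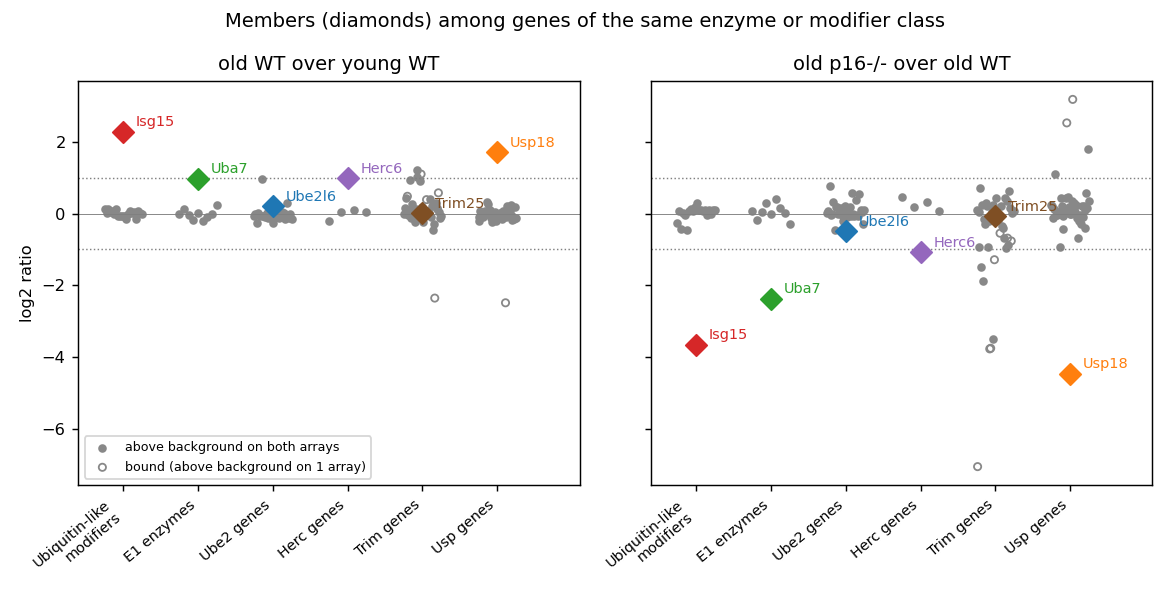
Log2 ratios of the 6 Isg15 system genes (diamonds) beside other genes of the same class (grey points; open where the value is a bound), for old against young WT (left) and p16-/- against old WT (right), with dotted lines at 2-fold. Isg15, Uba7, Herc6 and Usp18 lie below every plotted gene of their class in the right panel, Ube2l6 lies at the lower edge of its class, and Trim25 lies among its class.

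Other genes of the Isg15 system, a list of 34 of which 32 were on the array, were mostly within 2-fold. For old against young WT 2 of 32 were at least 2-fold higher and 0 lower, with a median of 0.05. Irf7 and Ddx58 were the 2. For p16-/- against old WT 5 were at least 2-fold lower and 1 higher, with a median of -0.05. Both medians changed sign when arrays were centred on their median. For p16-/- against young WT 2 of 31 were lower and 1 higher. Over all counted genes 2.92% were higher and 3.16% lower for old against young WT. The shares were 6.62% lower and 5.85% higher for p16-/- against old WT. They were 6.97% lower and 6.35% higher for p16-/- against young WT.

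The receptor and kinase genes of type I interferon signalling were level. Ifnar2, the receptor chain that Usp18 binds, had signals of 5867, 6380 and 6336 on young WT, old WT and old p16-/-. Ifnar1, Jak1 and Tyk2 were at 0.11, -0.20 and 0.14 for p16-/- against old WT. The transcription factors downstream of them were not level. Stat2 had signals of 4951, 8522 and 2254, with ratios of 0.85 and -1.93. Irf9, its partner in the complex that binds the response element, was at 0.82 and -1.56, and Irf7 was at 1.66 and -3.51.

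Among genes tied to Trim25, Ddx58 (RIG-I), the sensor it activates, had signals of 5930, 12664 and 3080, with ratios of 1.16 and -2.05. Mavs, the adaptor of RIG-I, was at -0.08 and -0.06, Rnf135, another ligase for RIG-I, at 0.17 and -0.18, and Zc3hav1, an antiviral RNA-binding cofactor, at 0.40 and -0.34. Arih1, a further ligase described for Isg15, was at -0.04 and -0.08. Other proteases reported to cleave Isg15 were within 2-fold for p16-/- against old WT, Usp5 at -0.09, Usp14 at -0.03, Usp16 at -0.03, Usp21 at 0.21 and Usp2 at -0.94, apart from Usp13 at 1.12 with signals of 142, 130.5 and 285. Itgal, a subunit of the receptor described for extracellular Isg15, had signals of 148, 148 and 139.

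Other features differed between the same arrays. Fibroblast markers were above background on all arrays (14 of 14). Their median was -0.14 for p16-/- against old WT, with 2 at least 2-fold lower (Thy1 at -3.99 and Col5a1 at -1.12) and 2 higher (Pdgfra at 1.59 and Fap at 1.5). Over all counted genes 6.62% were at least 2-fold lower in that comparison and 5.85% higher. Macrophage and leukocyte markers were above background for 17, 17 and 9 of 19 genes on young WT, old WT and old p16-/-, and their summed signal was 61885, 30627 and 18843, of which Itgam alone made up 14934 on old p16-/-. Of 18 counted, 11 were at least 2-fold lower on old p16-/- than on old WT and 3 higher, against the same shares of all counted genes. Adgre1, Tyrobp and C1qa were not well above background on old p16-/-, whereas Mrc1 was at 2.22, Aif1 at 1.31 and Ptprc at 1.32 by a bound. For old against young WT 15 of 17 counted were at least 2-fold lower and 0 higher, against 3.16% and 2.92% of all counted genes. The median of these markers was -2.09 over 17 genes for old against young WT. For p16-/- against old WT it was -1.85 over 18, of which 10 are bounds. Their part in the results was not tested, and in bulk RNA fewer cells of a type and less RNA per cell cannot be told apart. Lymphocyte and plasmacytoid dendritic cell markers were above background for 5, 4 and 4 of 9 genes.

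The Y-linked genes Ddx3y and Eif2s3y were above background on young WT alone, and Xist on the old arrays alone, so that age and sex-linked expression cannot be told apart in comparisons with young WT. Cdkn2a had signals of 62705, 65464 and 28065, but its probe is not known to lie in the deleted part and does not check the genotype. Between 57.4% and 61.6% of spots were well above background on an array, and the 75th percentile of signal ran from 2243 to 2338.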

How the data were processed

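RNA of 3 samples was hybridised to 1-colour (Cy3) Agilent arrays. Agilent Feature Extraction 11.5.1.1 produced the deposited spot intensities, per the file headers, which are linear, background-subtracted and not normalized between arrays; the deposited value table held the same intensity for 38880 of 38880 probes spotted once (relative tolerance 0.0001). Deposited 0/1 flags gave background and outlier calls. Control spots and outlier spots (246 to 267 per array) were left out, log2 signals averaged per probe and each array's 75th percentile subtracted. Accessions named 27413 of 39279 probes (RefSeq, GRCm38.p6), and the brightest probe stood for a gene. Bounds below 1-fold count as 0. With 1 array per group no test was run; precision rests on the number of arrays. The ratio and bound steps were tested on simulated data. limma 3.58.1 in R 4.3.3 gave the normalization alternatives. Normexp used the median spot signal, since the files read hold no mean signal, in place of the planned mean. Named genes are the 6 members, list members at least 2-fold apart or bright, same-class genes, nearest patterns and chromosomal neighbours. The members and lists were chosen with earlier results of these data known. Some genes that the naming rule takes are not reported here.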

Additional observations from a re-analysis of the deposited data

How the results depend on the processing

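No paired analysis was possible because each group has 1 array. The 18 ratios of the 6 genes were recomputed under 8 alternatives. Those that changed the background filter or took the deposited value table could not move any ratio. Every member probe was above background on all arrays, and the table held the same intensities. Averaging probes could move only Isg15 and Herc6. The counts of unmoved values below include these fixed ones and so overstate the stability. Of the 144 values, 129 moved by less than 0.077 to 0.079, the spot error over all probes above background in each comparison (not the errors by signal range given above), and 0 that were 2-fold apart changed direction; 2 crossed 0 (Trim25 at -0.03 for old against young WT with arrays centred on their median, and Herc6 at 0.08 for p16-/- against young WT with probes averaged) and 2 crossed 2-fold, both Herc6 as given above. With normexp background correction the median over the 6 genes was 0.78 for old against young WT, -1.44 for p16-/- against old WT and -0.72 for p16-/- against young WT. With probes averaged the first was 0.88 and the second -1.54. Where the brighter array read 1000 or more, a limit chosen after the data were seen, the second was -2.37 over 5 genes. Counts of genes at least 2-fold lower stayed at 3 to 4 of 6 for p16-/- against old WT and at 3 of 6 for p16-/- against young WT where all 6 were counted (2 of 4 with the limit of 1000), and 2 were higher for old against young WT throughout. Over all genes, normexp lowered the counts for old against young WT from 424 higher and 459 lower to 254 and 255, and the count higher for p16-/- against old WT from 859 to 560; the cause was not tested. Herc6 is the member with the lowest signals, nearest to background.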

Other observations

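Neighbouring genes on the chromosome were read for each of the 6 genes, 1 on each side, of which 10 of 12 were counted in the first 2 comparisons. For old against young WT 0 were at least 2-fold higher and 1 was lower (Smtnl1, beside Ube2l6, at -3.46 with a signal of 57.5 on old WT). For p16-/- against old WT 3 were lower and 1 higher. Serping1, which encodes the complement C1 inhibitor and lies on the other side of Ube2l6, had signals of 5779, 7126 and 1104 on young WT, old WT and old p16-/- and a ratio of -2.70, where Ube2l6 was at -0.49. Dgke, a diacylglycerol kinase gene beside Trim25, was at 0.89 and -1.18, where Trim25 was at 0.02 and -0.07. Tuba8, beside Usp18, was at -0.998 and -1.19, and Agrn, beside Isg15, at 0.86 and -0.89. Pyurf and Ppm1k, on either side of Herc6, were within 0.15 of 0 in both.

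The few interferon genes looked up, with Ifna4 alone from the Ifna family, were at or near background. Ifnb1 was called above background on old WT alone, at a signal of 45.3, which gave no fold against the dim arrays. Ifna4, Ifne and Ifnk were below the background call on all 3. Ifng was below the background call on young WT, at 42.5 on old WT and at 124 on old p16-/-, a log2 ratio of 1.54 for p16-/- against old WT. Ifnl3, above background on all 3, was at 124, 133 and 106 on young WT, old WT and old p16-/-.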
